A study of Mus musculus with 11 samples.

Results

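The genes described here encode enzymes and accessory proteins that make prostaglandins and leukotrienes from arachidonic acid, and they were followed in the gonadal white adipose tissue (WAT) of mice fed a high fat diet (HFD) with or without iodomethylcholine (IMC). The members were chosen by name: Pla2g4a, Ptgs1, Ptgs2, Ptges, Ptgds, Hpgds, Ptgis, Alox5, Alox5ap and Ltc4s. Of these 10 genes, 9 have expression values among the 12787 genes of the table, and Ptgds was not analysed here. The mice were male C57Bl6/J animals, and all of them were fed the 60% HFD, for 20 weeks. The 5 HFD control mice received the HFD alone, labelled as vehicle, and the 6 IMC-treated mice (HFD + IMC) received the same diet containing 0.06% w/w IMC, an inhibitor of the gut microbial enzyme CutC, which releases trimethylamine from choline. Each mouse gave 1 mRNA library from whole adipose tissue, so every value is a level in a mixture of cells, and 1 further control library was dropped by the submitters for quality. Between 22320022 and 25155366 reads per mouse fell on the listed genes.

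Eicosanoid synthesis starts when a phospholipase frees arachidonic acid from membrane phospholipid. Cyclooxygenases convert it to prostaglandin H2, from which terminal synthases make prostaglandins and prostacyclin, while 5-lipoxygenase with its activating protein opens the separate branch to the leukotrienes. In adipose tissue these mediators are known to act on lipolysis, on adipocyte differentiation and on immune cells, and macrophages and mast cells are well-known producers.

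The sequences just upstream of the gene are given for Pla2g4a and Ltc4s, because one of them fell and the other rose with IMC. They are RefSeq sequences of GRCm38.p6 in the direction of transcription, 5′ to 3′, and they hold only bases outside the gene as annotated by both RefSeq and GENCODE. The Pla2g4a window is chr1:149961291-149961540 and the Ltc4s window is chr11:50238617-50238782, both on the minus strand. The Ltc4s window is the 166 bases that remained of 250, because the GENCODE start lies 84 bases upstream of the RefSeq start used for the window.
Pla2g4a: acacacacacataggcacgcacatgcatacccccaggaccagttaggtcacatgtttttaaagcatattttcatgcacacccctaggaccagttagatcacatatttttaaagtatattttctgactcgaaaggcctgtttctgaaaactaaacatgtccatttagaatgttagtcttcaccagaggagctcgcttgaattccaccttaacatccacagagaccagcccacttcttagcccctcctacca
Ltc4s: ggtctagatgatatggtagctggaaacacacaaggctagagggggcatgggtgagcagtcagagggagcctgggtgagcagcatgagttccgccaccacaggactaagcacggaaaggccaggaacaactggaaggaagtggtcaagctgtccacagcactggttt
The RefSeq windows of Hpgds, Ptgs1, Ptges and Ptgds, and another of Pla2g4a, lie wholly inside the annotated genes and were not searched. No window was at hand for Alox5ap and Ptgis, so these genes were not searched either. Both strands of the remaining windows were searched for the letters GAGGAA (the core bound by PU.1, a myeloid transcription factor), TTGCNNAA (a C/EBP motif), CACGTG (the E-box) and AGATAA (a motif of GATA factors), and matches would be in capitals. None was found in the windows shown for Pla2g4a and Ltc4s. Of all 32851 RefSeq windows of 250 bases, 23.3% held the PU.1 letters, 9.56% the C/EBP letters, 6.02% the E-box and 9.99% the GATA letters. The PU.1 letters were found in the windows of Ptgs2 and Alox5, and the C/EBP letters in that of Ptgs2, at separate positions, and neither gene passed the limma test. A match is a description of the sequence only.

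Of the 9 measured members, 3 were lower in IMC-treated mice, 1 was higher and 5 did not pass the test. Hpgds, which makes prostaglandin D2, fell by 32.0%, Alox5ap, the 5-lipoxygenase activating protein, fell by 33.1%, and Pla2g4a, the cytosolic phospholipase A2, fell by 28.4%. Ltc4s, which makes leukotriene C4, was 1.44-fold higher. Neither cyclooxygenase gene passed the test or had an unadjusted p under 0.05. Tests were made with limma on log2 CPM, the reads of a gene relative to the size of the library, and p was adjusted over the 12787 genes by the Benjamini-Hochberg method, with a threshold of 0.05. The share of members called, 44.4%, stands beside 40.9% of all genes, so it is near the background. In the table as a whole 20% of genes were called higher and 21% were called lower in IMC-treated mice. The members' median log2 fold change was -0.24, beside -0.03 over all genes.

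**Figure D1:**
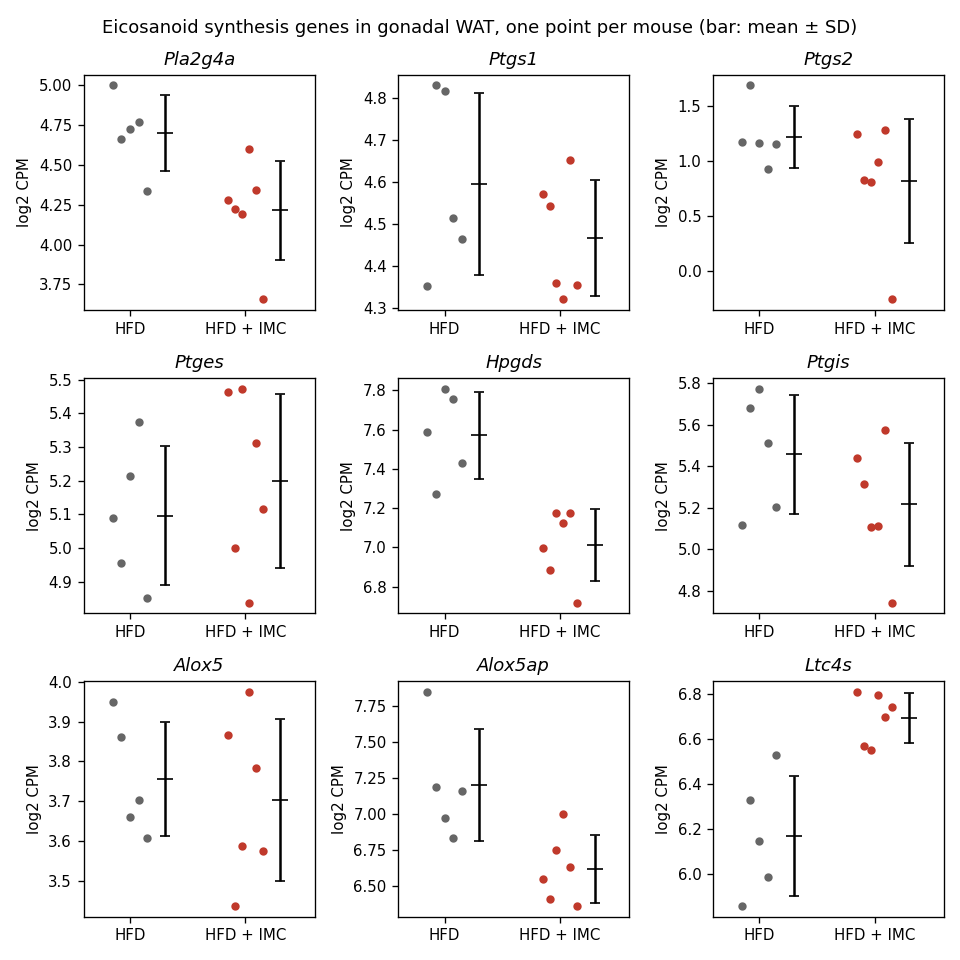
Log2 CPM of the 9 measured members on the vertical axes in HFD control mice (n = 5) and IMC-treated mice (n = 6), with 1 point per mouse and a bar for the mean ± SD. Hpgds lies lower and Ltc4s higher in every IMC-treated mouse than in any HFD control mouse, while the points of the other 7 members overlap between the groups.

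Set beside each other per kilobase of exon, the members spanned a wide range of levels. In HFD control mice Alox5ap reached 113 ± 34.0 CPM per kilobase (SD, n = 5) and Ltc4s 112 ± 21.0, which did not differ beyond their spread. Hpgds followed at 55.2 ± 8.36 and Ptgis, the prostacyclin synthase, at 19.5 ± 3.80 CPM per kilobase. Ptges at 9.46 ± 1.37, Pla2g4a at 8.60 ± 1.38 and Ptgs1 at 8.52 ± 1.29 CPM per kilobase were neighbours that their spread did not separate. Alox5 was lower, at 4.81 ± 0.486 CPM per kilobase. Ptgs2, the inducible cyclooxygenase, had the lowest level of the measured members, 0.532 ± 0.112 CPM per kilobase. In IMC-treated mice Ltc4s had the highest level, 159 ± 12.1 CPM per kilobase (SD, n = 6), Alox5ap followed at 73.9 ± 12.5 and Hpgds at 37.4 ± 4.58. The order below them was Ptgis, Ptges, Ptgs1, Pla2g4a, Alox5 and Ptgs2, so that only the pairs Alox5ap and Ltc4s, and Pla2g4a and Ptgs1, stood in a different order in the group means.

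**Figure D2:**
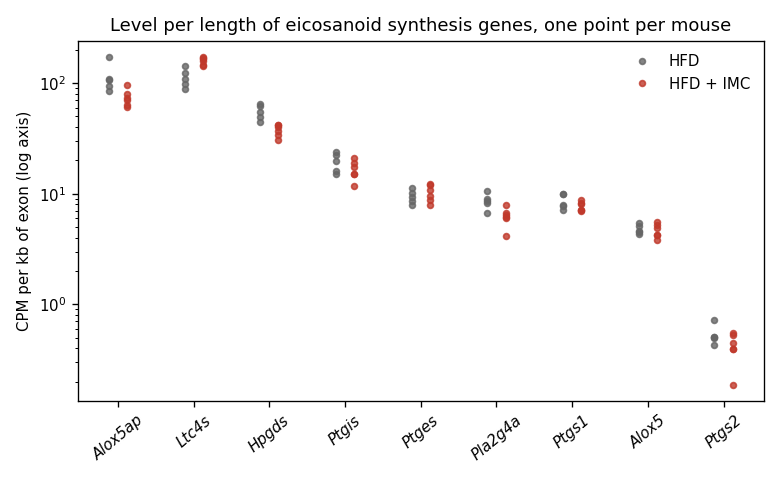
CPM per kilobase of exon on a log axis for the 9 measured members, with 1 point per mouse for HFD control mice (n = 5) and IMC-treated mice (n = 6). Alox5ap, Ltc4s and Hpgds lie at the top in both groups, and Ptgs2 lies at the bottom, with means of 0.532 and 0.417 CPM per kilobase.

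Pla2g4a releases arachidonic acid from phospholipids and is the first enzyme of the pathway (chr1:149829618-149961290, minus strand, GRCm38). Its log2 CPM in the HFD control mice was 5.00, 4.66, 4.73, 4.77 and 4.34. In the IMC-treated mice it ran from 3.66 through a median of 4.25 to 4.60. The groups overlapped, and 4 of the 6 IMC-treated mice lay below every HFD control mouse. The log2 fold change was -0.48 (SE 0.15, limma, Benjamini-Hochberg adjusted p = 0.0186), a fold of 0.716 with a 95% interval of 0.575 to 0.891. The call rested on HFD replicate 1, the control mouse with the highest value, because without it the log2 fold change was -0.41 and the limma adjusted p was 0.0532.

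The cyclooxygenases Ptgs1 and Ptgs2 catalyse the committed step towards all prostanoids. Ptgs1, the constitutive form, had a mean log2 CPM of 4.60 ± 0.22 (SD, n = 5) on the HFD alone, against 4.47 ± 0.14 (SD, n = 6) with IMC. Its fold was 0.914, with a 95% interval of 0.790 to 1.06 (limma, adjusted p = 0.314). Ptgs2, the form induced by inflammatory stimuli, was measured from 20 to 75 reads per mouse, so its counting error was the largest among the members. Its log2 CPM was 1.18, 1.69, 1.16, 0.93 and 1.15 in HFD control mice and ran from -0.26 through a median of 0.91 to 1.29 in IMC-treated mice. The lowest value belonged to IMC replicate 6, and the other IMC-treated mice lay between 0.81 and 1.29, inside or just below the control range. The fold was 0.755 with a 95% interval of 0.517 to 1.10 (limma, adjusted p = 0.220), and without IMC replicate 6 the log2 fold change moved from -0.41 to -0.19. Neither interval shows that the cyclooxygenase genes were at the same level in both groups.

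The terminal synthases turn prostaglandin H2 into the separate prostaglandins, and among the 3 measured here Hpgds differed between the groups. Hpgds, the hematopoietic prostaglandin D synthase (chr6:65117293-65144908, minus strand, GRCm38), had a log2 CPM of 7.59, 7.27, 7.81, 7.75 and 7.43 in HFD control mice. In IMC-treated mice it ran from 6.72 through a median of 7.06 to 7.18. Every IMC-treated mouse lay below every HFD control mouse, with a gap of 0.09 between the groups on the log2 scale. The log2 fold change was -0.56 (SE 0.11, limma, Benjamini-Hochberg adjusted p = 0.00124), with a fold of 0.680 and a 95% interval of 0.580 to 0.796. A two-sided exact permutation test gave p = 0.00433, the smallest that the 462 arrangements of the mice can give. Groups without overlap were found for 2 of the 9 members, Hpgds and Ltc4s, and for 23.1% of all genes.

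Ptges, the microsomal prostaglandin E synthase, was at a log2 CPM of 5.10 ± 0.21 (SD, n = 5) on the HFD alone, against 5.20 ± 0.26 (SD, n = 6) with IMC. Its fold was 1.07, with a 95% interval of 0.893 to 1.29 (limma, adjusted p = 0.532). Ptgis had a log2 CPM of 5.46 ± 0.29 (SD, n = 5) and 5.22 ± 0.30 (SD, n = 6), and its fold was 0.846 with a 95% interval of 0.676 to 1.06 (limma, adjusted p = 0.219). For both synthases the values of the groups overlapped. Within a mouse, the level of Hpgds over that of Ptges, as a difference of log2 CPM, averaged 2.47 ± 0.12 (SD, n = 5) on the HFD alone, against 1.81 ± 0.27 (SD, n = 6) with IMC. This pair, which compares the prostaglandin D and E synthases, was chosen after the values were seen and was not tested.

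On the leukotriene branch Alox5ap was lower, Ltc4s was higher and Alox5 did not pass the test. Alox5, the 5-lipoxygenase that makes leukotriene A4, was at a log2 CPM of 3.76 ± 0.14 (SD, n = 5) on the HFD alone, against 3.70 ± 0.20 (SD, n = 6) with IMC. Its fold was 0.964 with a 95% interval of 0.827 to 1.12 (limma, adjusted p = 0.711). Alox5ap, the membrane protein that presents arachidonic acid to that enzyme (chr5:149264767-149288153, plus strand, GRCm38), had a log2 CPM of 7.85, 7.19, 6.97, 6.83 and 7.16 in HFD control mice. In IMC-treated mice it ran from 6.37 through a median of 6.59 to 7.00. The groups overlapped through 1 IMC-treated mouse, and the other 5 lay below every HFD control mouse. The log2 fold change was -0.58 (SE 0.16, limma, Benjamini-Hochberg adjusted p = 0.0112), with a fold of 0.669 and a 95% interval of 0.527 to 0.849. HFD replicate 1 had by far the highest Alox5ap level, and without it the log2 fold change was -0.42 with a limma adjusted p of 0.0157.

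Ltc4s joins glutathione to leukotriene A4 and so makes the first cysteinyl leukotriene (chr11:50236461-50238616, minus strand, GRCm38). Its log2 CPM was 5.86, 6.33, 6.15, 5.99 and 6.53 in HFD control mice. In IMC-treated mice it ran from 6.55 through a median of 6.72 to 6.81. Every IMC-treated mouse lay above every HFD control mouse, although the gap between the groups was only 0.02 on the log2 scale. A gap this small depends on how the libraries were scaled, and overlap was read in the deposited scaling only. The log2 fold change was 0.52 (SE 0.10, limma, Benjamini-Hochberg adjusted p = 0.00156), with a fold of 1.44 and a 95% interval of 1.23 to 1.68. The two-sided exact permutation p was again 0.00433. Ltc4s overlaps an annotated antisense gene, as do Alox5ap and Ptgis. The libraries were directional, but the strand setting of the count is not given in the sources used here, so reads of such pairs may not have been kept apart. Pla2g4a, Ptgs1, Ptges and Hpgds each overlap 1 other annotated gene, which lies on the opposite strand for all but Ptges. The same limit thus holds for Pla2g4a, Ptgs1 and Hpgds. None of the genes that overlap a member is listed in the table.

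Ltc4s and Alox5ap belong to the same family of membrane proteins and act next to Alox5, and they moved in opposite directions. The log2 level of Ltc4s minus that of Alox5ap was -1.99, -0.86, -0.83, -0.85 and -0.64 in the HFD control mice. In the IMC-treated mice it ran from -0.21 to 0.38. Every control mouse thus had less Ltc4s than Alox5ap in CPM, while 4 of the 6 IMC-treated mice had more. CPM is not divided by length, and the exons of Ltc4s span 0.652 kilobases beside 1.346 for Alox5ap. The sign of this value therefore does not order the 2 genes. Per kilobase of exon their means in HFD control mice were 112 for Ltc4s and 113 for Alox5ap. The group means were -1.03 ± 0.54 (SD, n = 5) and 0.07 ± 0.24 (SD, n = 6), a 2.15-fold difference in the ratio. The pair was chosen after the values were seen, and the difference was not tested.

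Around the members, a wider list of 99 genes for arachidonate supply, prostanoid and leukotriene synthesis, breakdown, transport, receptors and regulators was written, of which 62 were listed in the table. Of these 62 genes 20 were higher in IMC-treated mice, 17 were lower and 25 did not pass the test, a called share of 59.7%, where 40.9% of all genes were called, 20% higher and 21% lower. The list was written with results known, and this difference in share was not tested. The median log2 fold change was -0.03 in the list and -0.03 over all genes. The counts by role are small and are given as descriptions beside the same shares. Among 9 genes of arachidonate release, 5 were higher and 3 were lower. The largest changes in log2 CPM were those of Pla2g16, the main phospholipase A2 of adipocytes (0.98, SE 0.13), of Pla2g7, a secreted enzyme that cleaves platelet-activating factor (-0.96, SE 0.20), and of Pla2g12a (0.72, SE 0.12). Pla2g16 and Pla2g4a thus changed in opposite directions in the same tissue. Of 6 genes that supply or reacylate arachidonate, 3 were lower, led by Lpcat2 (log2 fold change -0.57, SE 0.18), Mboat7 (-0.29, SE 0.05) and Fads1 (-0.25, SE 0.08), and 1 was higher.

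Of 7 other prostanoid synthase genes, 4 were lower and 1 was higher. Tbxas1, the thromboxane synthase, had a log2 fold change of -0.67 (SE 0.13), beside -0.56 for Hpgds. Akr1b8 (-1.26, SE 0.21) and Cbr3 (-0.92, SE 0.15) changed more. Akr1b8 belongs to a family of close paralogs, and reads shared among them may not have been counted, so its value is uncertain. Of 9 other lipoxygenase and leukotriene synthesis genes written, 3 were listed, none of them a lipoxygenase. All 3 listed genes were higher, as Ltc4s was. They were Mgst2 and Mgst3, microsomal glutathione transferases, with log2 fold changes of 0.77 (SE 0.22) and 0.56 (SE 0.13), and Lta4h, which makes leukotriene B4, with 0.15 (SE 0.04). Among 9 epoxygenase, omega-hydroxylase and epoxide hydrolase genes 5 were higher and none was lower by limma, with 6 at an unadjusted p under 0.05. Cyp2c44 (0.88, SE 0.21), Cyp2e1 (0.84, SE 0.27) and Cyp2j9 (0.62, SE 0.12) had the largest log2 fold changes of this role.

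Of 10 transport and breakdown genes 5 were higher, 1 was lower and 4 did not pass the test. Slco3a1 (log2 fold change 0.71, SE 0.09) and Slco2a1 (0.43, SE 0.08) encode prostaglandin transporters, and Dpep2 (-0.54, SE 0.08) encodes a dipeptidase that converts leukotriene D4. On the receptor side, of 7 genes for prostanoid receptors and the related Ptgfrn, 2 were lower and none was higher by limma. An unadjusted p under 0.05 was found for 3 of them. The called genes were the prostaglandin E2 receptors Ptger2 (-0.57, SE 0.09) and Ptger4 (-0.48, SE 0.11). Under leukotriene, lipoxin and related receptors, 3 genes were listed, Ltb4r1, Cysltr1 and Cmklr1. None of them was called by limma, and 1 of them had an unadjusted p under 0.05. Of 8 regulators 4 were lower, with the largest log2 fold changes in Tnf (-0.70, SE 0.17), Cotl1, which binds 5-lipoxygenase (-0.51, SE 0.08), and Anxa1 (-0.38, SE 0.11).

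**Figure D3:**
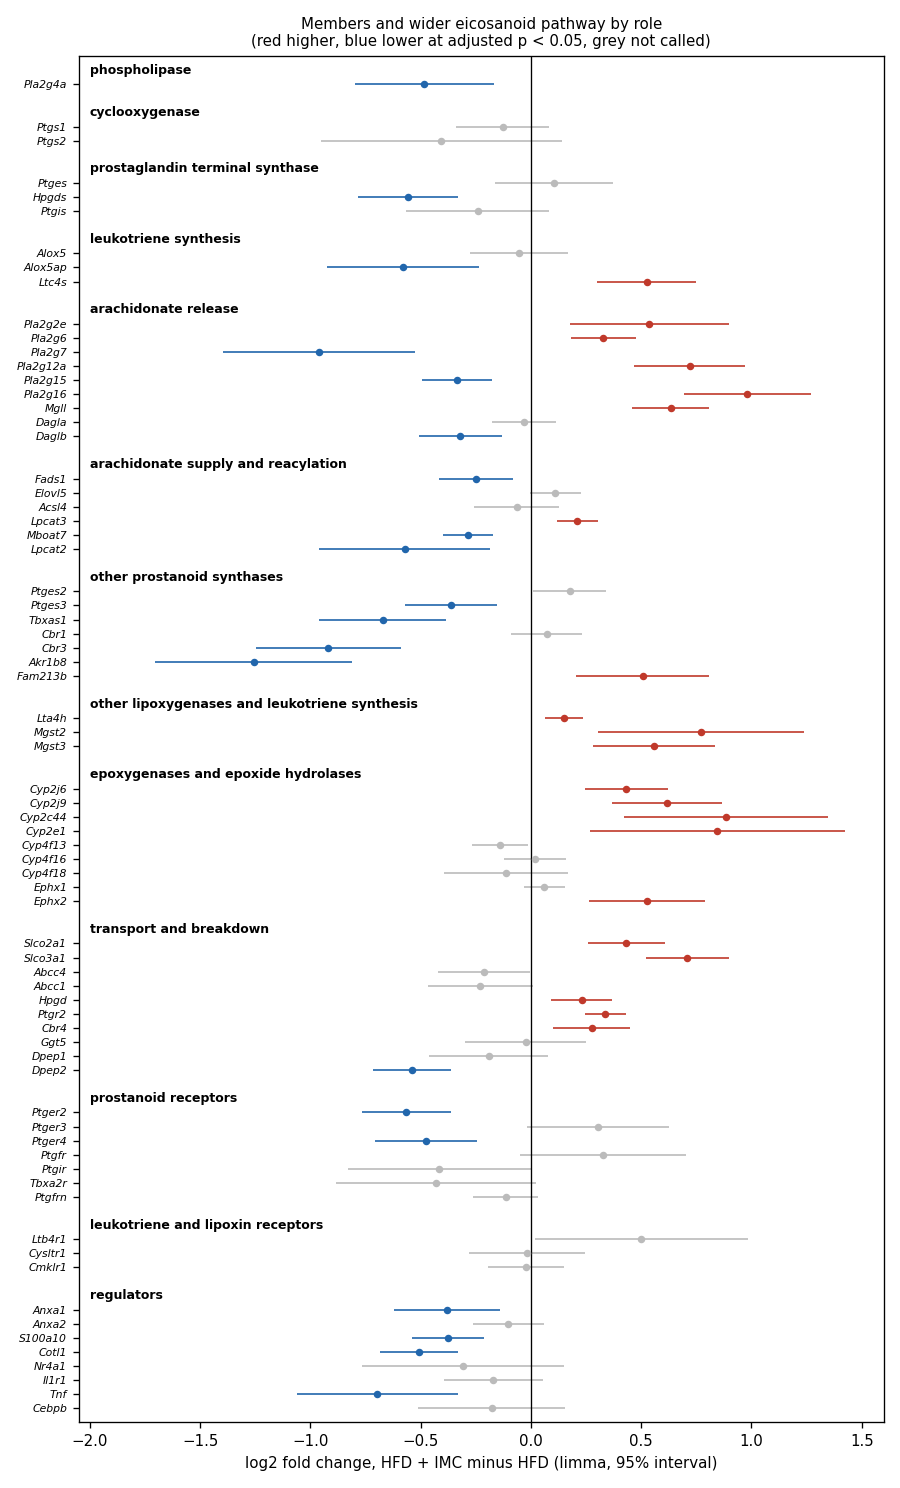
Log2 fold change of IMC-treated (n = 6) against HFD control mice (n = 5) on the horizontal axis with 95% intervals from limma, for the 9 measured members and 62 genes of the wider pathway grouped by role. Red marks genes called higher, blue genes called lower and grey genes not called, and arachidonate release and leukotriene synthesis hold genes on either side of 0.

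Because the tissue is a mixture, marker genes of its cell types were read from the same fit. All 15 macrophage markers were listed, and 12 of them were lower, including Adgre1 (log2 fold change -0.58, SE 0.14), Cd68 (-0.61, SE 0.10) and Csf1r (-0.32, SE 0.09). Their summed level was 11078 to 13967 CPM in HFD control mice and 6600 to 9423 CPM in IMC-treated mice. Of 10 listed mast cell markers 9 were lower, with Cma1 at -1.56 (SE 0.23), Cpa3 at -1.42 (SE 0.21) and Mcpt4 at -1.34 (SE 0.20). Their sum was 537 to 1217 CPM in HFD control mice and 174 to 351 CPM in IMC-treated mice. The mast cell and macrophage sums were both highest in HFD replicate 1, the mouse with the highest Alox5ap and Pla2g4a. Hpgds was highest in HFD replicate 3. Both sums were lower in every IMC-treated mouse than in any HFD control mouse, and their part in the lower Hpgds, Alox5ap and Pla2g4a was not tested. In whole tissue, fewer cells of a type and less RNA per cell cannot be told apart.

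Adipocyte markers moved the other way, with 11 of 12 higher, among them Adipoq (1.18, SE 0.15), Plin1 (0.84, SE 0.11) and Lep (1.04, SE 0.11) as log2 fold changes. Their sum was 20370 to 25549 CPM in HFD control mice and 31997 to 37266 CPM in IMC-treated mice, and its part in the rise of Ltc4s was not tested. Among the remaining lists, 1 of 2 eosinophil markers was lower (summed level 9.49 to 14.4 CPM against 5.04 to 8.32 CPM), 3 of 3 platelet markers were lower (84.9 to 135 CPM against 70.7 to 97.5 CPM), and neither of the 2 neutrophil markers nor the 1 T cell marker was called by limma, with 1 of each at an unadjusted p under 0.05. Progenitor and fibroblast markers were lower for 7 of 12 genes and mesothelial markers for 2 of 8 (297 to 411 CPM against 137 to 348 CPM). Smooth muscle and pericyte markers were higher for 4 of 9 and endothelial markers for 3 of 12. The eosinophil sum was lower in every IMC-treated mouse than in any HFD control mouse. The summed level of each other list among these remaining ones overlapped between the groups. Over all genes 21% were called lower and 20% higher, and the mesothelial and endothelial shares, 25% each, were near these. No marker of B cells or of epididymis was listed. No listed marker was at 0 in any mouse, but this holds for every listed gene, the fewest reads of any gene in a mouse being 5.

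**Figure D4:**
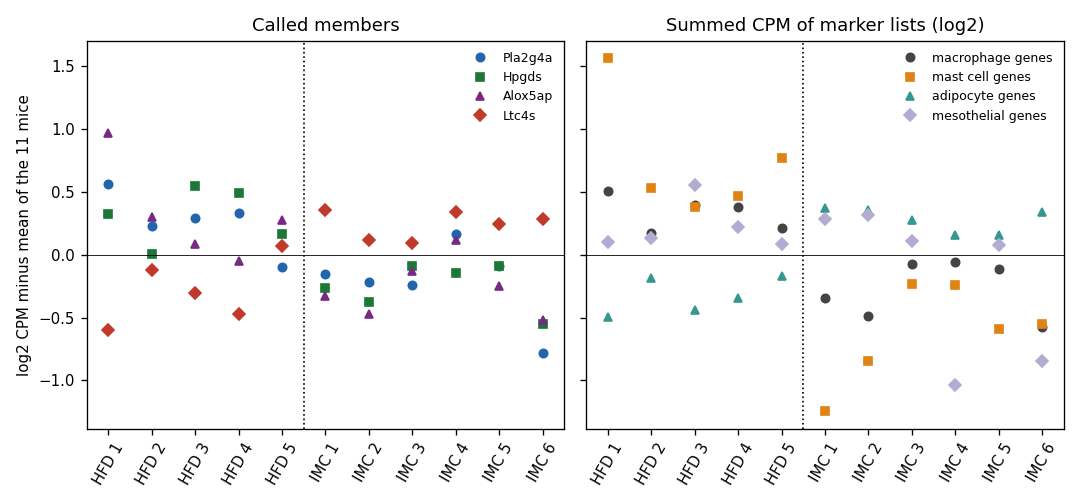
Log2 CPM of the 4 called members (left) and log2 of the summed CPM of marker lists (right), each as the difference from its mean over the 11 mice on the vertical axis, with 1 position per mouse and a dotted line between HFD control and IMC-treated mice. Hpgds, Alox5ap and Pla2g4a are mostly above their mean in HFD control mice, as the macrophage and mast cell sums are, Ltc4s and the adipocyte sum are mostly above it in IMC-treated mice, and the mesothelial sum is low in IMC replicates 4 and 6.

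The genes whose log2 CPM followed each member most closely over the 11 mice were read as a description, with Pearson's r and no test. They share the same libraries and the same difference between the groups. Each was picked as the highest r among all listed genes. With only 11 mice such a search yields a high r even for unrelated genes, within groups as well. Hpgds was followed most closely by Adcy3, an adenylyl cyclase (r = 0.989), and Alox5ap by Hvcn1, a proton channel of immune cells (r = 0.980). Ltc4s was followed by Ubap2 (r = 0.976) and Pla2g4a by Mctp1 (r = 0.969). After the group means were subtracted these values were 0.965, 0.962, 0.925 and 0.946. Among the members that did not pass the test, Ptgis was followed by Fndc1 (r = 0.946), Ptgs2 by Uba6 (r = 0.913), Alox5 by Tnfrsf21 (r = 0.906) and Ptges by Fbxl21 (r = 0.902). Ptgs1 was followed by another member, Ptgis (r = 0.899).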

How the data were processed

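RNA sequencing of gonadal WAT from 5 HFD control mice and 6 IMC-treated mice was used, with groups taken from the sample labels. The authors trimmed reads with Trim Galore, checked them with FastQC, aligned them to mm10 with STAR, removed genes with low counts, scaled libraries by the upper quartile with edgeR and deposited log2 CPM values for 12787 genes. The same table holds the authors' own log2 fold changes, likelihood-ratio score, p-value and FDR as deposited, which were not used.

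A count test had been foreseen for counts, but the values are on a log scale, so they were fitted with limma 3.58.1 (R 4.3.3; lmFit, eBayes with trend) on the group alone, and p was adjusted by the Benjamini-Hochberg method across the 12787 genes. The step between values gave the reads behind them, and 100% of the values came out whole within 0.1 reads. They gave depth and an alternative fit with limma voom. Reads are not independent molecules, so read numbers show counting error only. Single members were also compared by two-sided exact permutation tests. Exonic length and coordinates came from GENCODE vM21 (GRCm38), the build that mm10 names. CPM per kilobase of exon is the linear CPM divided by that length.

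The members and gene lists were chosen with earlier results of these data known. The text names all members, in each role of the wider pathway the called genes of largest change (at most 3), the first 3 markers of the macrophage, mast cell and adipocyte lists, and the nearest gene of each member. Alternatives were the variance trend, robust variances, voom, an added 1 CPM, a filter of 1 CPM in every mouse, scaling by medians or totals, and each mouse left out. The labels give no batch, and replicate numbers, assigned in accession order, pair nothing. The limma and read recovery steps were tested on simulated data. Python 3.11.15, numpy 2.4.6, pandas 2.3.3, scipy 1.17.1 and matplotlib 3.10.9 were used.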

Additional observations from a re-analysis of the deposited data

Results flagged for a closer look

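The log2 CPM of Ptgs2 in HFD + IMC replicate 6 was -0.2621, far below the other IMC-treated mice, which lay between 0.81 and 1.29. The gap to the nearest of them took up 0.694 of the group's range, above the limit of 0.625 for 6 mice (Dixon's test at 95%). Across the 9 members in both groups 18 such sets of mice were examined, of which chance alone marks about 1 in 20. The value rests on 20 reads, and the same mouse had the lowest level of its group for 5 of the 9 members.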

How the results depend on the processing

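Under the 7 alternatives that kept all mice, 3 members were lower and 1 was higher in IMC-treated mice, as in the reported fit, and the wider pathway gave 20 higher and 17 to 18 lower genes. Ptgs2 could not be tested where 1 CPM was required in every mouse. With each mouse left out in turn, 1 member was higher, 2 to 3 were lower, and the calls over all genes ran from 4299 to 5125. The call of Pla2g4a was lost without HFD replicate 1 (limma adjusted p = 0.0532, beside 0.00721 to 0.0532 over all mice left out), and the log2 fold change of Alox5, never called, ran from -0.11 to 0.000582, the latter without IMC replicate 2. Hpgds, Alox5ap and Ltc4s kept direction and call in every alternative run. Of the calls over all genes 48.8% were higher, 51.1% with scaling by medians and 40.3% with scaling by totals, which moved the median of all genes by 0.01 and -0.03. No paired analysis was possible because the replicate numbers were assigned in accession order. Depth limited Ptgs2 most.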

Other observations

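Ltc4s, Alox5ap and Ptges belong with Mgst1, Mgst2 and Mgst3 to the family of membrane-associated proteins in eicosanoid and glutathione metabolism. Beside Ltc4s, all 3 transferase genes were higher in IMC-treated mice. Mgst1, an abundant detoxifying enzyme, was at a log2 CPM of 8.66 ± 0.15 (SD, n = 5) on the HFD alone, against 9.05 ± 0.14 (SD, n = 6) with IMC, and its log2 fold change was 0.38 (SE 0.08, limma, adjusted p = 0.00243). The log2 fold change was 0.77 for Mgst2 and 0.56 for Mgst3. Of the 6 genes of the family, Alox5ap was lower and Ptges did not pass the test. The family was put together after the values were seen, so no test of it was made.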
